A study of Mus musculus with 4 samples.

Results

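Hemoglobin and erythroid genes were followed in RNA from sorted mouse spleen natural killer (NK) cells, innate lymphocytes that kill infected or altered cells. The genes were fixed by name: the adult globin genes Hba-a1, Hba-a2, Hbb-bs, Hbb-bt and Hbb-b1, the heme synthesis gene Alas2, the red cell membrane genes Slc4a1 and Ermap, and the transcription factor gene Klf1. Of these 9 genes, 8 matched a row by Entrez number among the 26611 rows of the count table, and all 8 passed the filter on low counts. The level of Hbb-bt was not analysed here.

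The study compared 2 wild-type (WT) libraries with 2 Tcf7 knock-out (KO) libraries, each from its own mouse of the C57BL/6 background. Cells were sorted without TCRbeta and with NK1.1, NKp46, CD11b and KLRG1 on their surface, and 200 ng of RNA went into each library, per the labels. The labels give no age or treatment and do not say how the Tcf7 allele was made or whether it is deleted in all cells. The libraries are called WT 1, WT 2, KO 1 and KO 2 after the replicate numbers in the labels, which do not say what a shared number stands for.

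Red cells develop from nucleated erythroblasts into reticulocytes, which have lost the nucleus but still hold RNA, and then into mature erythrocytes. Hemoglobin is built from alpha and beta globin chains with heme, and the transcription factors Gata1 and Klf1 drive globin and heme genes in erythroblasts. In mice the spleen makes red cells as well as filtering them from the blood.

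The libraries held 28254693 to 40175537 counts, and 3 counts, the most that 0 counts allow, are worth 0.0747 to 0.106 CPM (counts scaled to a common library total). Tcf7, the targeted gene, stood at 89.5 and 79.1 CPM in WT 1 and WT 2 and at 11.2 and 25.05 CPM in KO 1 and KO 2. The genotypes did not overlap (log2 fold change of -2.22, SE 0.45), with an edgeR adjusted p of 1.00 and a DESeq2 adjusted p of 0.00216. The 12 NK cell markers summed to 37240 to 43918 CPM in the 4 libraries. Libraries of the same number were more alike than libraries of the same genotype. Chi-square divided by its degrees of freedom was taken, at library totals, over the 13464 to 13517 genes with enough counts in a pair. It came to 34.6 for WT 2 against KO 2 and 64.0 for WT 1 against KO 1. It was 137 for WT 1 against WT 2 and 266 for KO 1 against KO 2. The members are therefore also compared by library number.

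Each pair of globin genes is nearly identical in sequence, which bears on every globin value here. The coding sequences of Hba-a1 and Hba-a2 are 429 bases long in GENCODE and differ at 1 position, counted from the first base of the start codon (C381T, Hba-a1 first). Those of Hbb-bs and Hbb-bt are 444 bases long and also differ at 1 position (C417T, Hbb-bs first). The stretches around these positions, coding bases 336 to 426 of the alpha genes and 372 to 444 of the beta genes, are shown 5′ to 3′ with the differing base in capitals.
Hba-a1: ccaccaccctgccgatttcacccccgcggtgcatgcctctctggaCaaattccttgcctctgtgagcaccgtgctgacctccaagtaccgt
Hba-a2: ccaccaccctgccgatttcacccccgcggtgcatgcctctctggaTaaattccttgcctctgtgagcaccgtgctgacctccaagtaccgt
Hbb-bs: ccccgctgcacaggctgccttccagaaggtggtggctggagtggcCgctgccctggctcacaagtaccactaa
Hbb-bt: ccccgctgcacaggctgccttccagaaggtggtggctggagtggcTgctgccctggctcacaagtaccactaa

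Of the 75-base windows of the main GENCODE transcript, 81.0% for Hba-a2 and 62.2% for Hba-a1 were also present in the other alpha gene. For Hbb-bs and Hbb-bt these shares were 64.3% and 56.6%, while Alas2, Slc4a1 and Klf1 shared 0 windows with another gene. The division of reads within a globin pair is therefore uncertain, and the summed rows are given as well. The count table had rows under the gene numbers of Hbb-b1 and Hbb-bs. C57BL/6 mice carry the haplotype whose adult beta genes are Hbb-bs and Hbb-bt, and Hbb-b1 is the name of a gene of another haplotype. Which positions were counted under the number of Hbb-b1 is not given in the sources used here. Its values are those of that row, which may hold reads of another adult beta gene, Hbb-bt included.

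The alpha genes lie on chromosome 11 of mm10 (Hba-a1 at 32283672 to 32284486, Hba-a2 at 32296492 to 32297310) and Hbb-bs lies on chromosome 7 (103826523 to 103827928, minus strand), by RefSeq for GRCm38.p6. Promoters of 3 members that stood higher in both KO libraries are shown 5′ to 3′ as the 250 bases before the start. Capitals mark GATAA, the core of the Gata factor motif, CACCC, the core bound by Klf1, and CCAAT, each on either strand.
Hba-a1 (chr11:32283422-32283671, plus strand): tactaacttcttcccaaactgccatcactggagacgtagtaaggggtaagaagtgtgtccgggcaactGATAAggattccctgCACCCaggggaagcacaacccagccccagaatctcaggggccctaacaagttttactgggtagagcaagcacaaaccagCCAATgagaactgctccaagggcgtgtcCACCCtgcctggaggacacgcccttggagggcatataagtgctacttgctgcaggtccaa
Hbb-bs (chr7:103827929-103828178, minus strand): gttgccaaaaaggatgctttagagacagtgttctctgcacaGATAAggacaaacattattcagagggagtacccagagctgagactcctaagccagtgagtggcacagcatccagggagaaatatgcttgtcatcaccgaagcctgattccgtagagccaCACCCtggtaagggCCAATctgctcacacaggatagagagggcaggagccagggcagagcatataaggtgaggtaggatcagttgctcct
Alas2 (chrX:150547167-150547416, plus strand): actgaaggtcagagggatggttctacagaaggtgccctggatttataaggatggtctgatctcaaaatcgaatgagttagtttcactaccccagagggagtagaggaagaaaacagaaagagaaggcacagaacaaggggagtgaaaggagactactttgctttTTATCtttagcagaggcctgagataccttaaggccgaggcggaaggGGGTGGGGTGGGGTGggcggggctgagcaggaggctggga

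RefSeq promoters were matched for 7 of the 9 genes, Slc4a1 and Hbb-b1 being the exceptions. All 7 held GATAA and CACCC, and 6 held CCAAT, the exception being Alas2. Among 32851 promoters of the same length, 22.6% held GATAA, 52.0% CACCC and 33.8% CCAAT. The Hba-a1 and Hba-a2 promoters were identical over the 247 bases that overlap when they are aligned. These matches describe the letters in the window and say nothing of binding.

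Alpha globin transcripts were about 5-fold more abundant in the KO libraries. Hba-a2 stood at 13.3 and 10.9 CPM in WT 1 and WT 2 and at 70.1 and 53.5 CPM in KO 1 and KO 2 (433, 428, 2057 and 1928 reads). Hba-a1 stood at 10.9 and 8.89 CPM in WT, against 61.6 and 39.8 CPM in KO. For both genes the lower KO library lay far above the higher WT library, and WT 1 and KO 1 were the higher library of their genotype. The log2 fold change of KO minus WT was 2.35 (SE 0.27) for Hba-a2 and 2.36 (SE 0.32) for Hba-a1, with edgeR adjusted p of 0.689 and 0.957 over all genes. DESeq2 called both higher in KO (adjusted p = 6.37e-08 and 3.27e-06).

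Beta globin transcripts differed by about the same fold. The Hbb-b1 row stood at 11.4 and 8.86 CPM in WT, against 67.2 and 34.8 CPM in KO. Hbb-bs stood at 9.05 and 5.70 CPM in WT, against 49.1 and 22.7 CPM in KO. Again both KO libraries lay above both WT libraries, but the 2 KO libraries stood further apart than for the alpha genes. The log2 fold change was 2.33 (SE 0.41) for Hbb-b1 and 2.28 (SE 0.50) for Hbb-bs, each with an edgeR adjusted p of 1.00, and DESeq2 called both higher (adjusted p = 2.67e-04 and 0.00451).

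A sum of rows undoes a split of reads between them, but would not recover shared reads that were left uncounted. Summed over the 4 globin rows, the libraries held 44.7 and 34.3 CPM in WT, against 248 and 151 CPM in KO. These are means of 39.5 ± 7.30 CPM for WT and 199 ± 68.8 CPM for KO (SD, n = 2 per genotype), a ratio of 5.05. An exact two-sided permutation test of the 4 libraries gave p = 0.333, the smallest it can give. The ratio was 5.55-fold between the libraries numbered 1 and 4.39-fold between those numbered 2. The alpha rows summed to 1 feature gave a log2 fold change of 2.36 (SE 0.28; edgeR adjusted p = 0.829, DESeq2 adjusted p = 2.02e-07), and the beta rows 2.31 (SE 0.44; edgeR adjusted p = 1.00, DESeq2 adjusted p = 6.97e-04). Even in KO 1 the 4 rows held 0.0257% of all counts, against 0.00336% in WT 2.

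**Figure D1:**
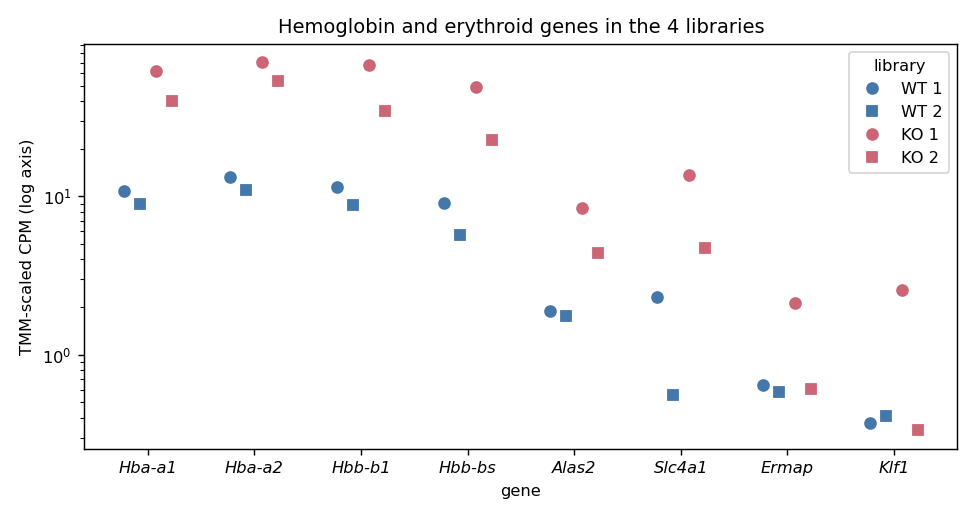
TMM-scaled CPM (log axis) of each of the 8 genes in WT 1, WT 2, KO 1 and KO 2, with 1 point per library. The 4 globin rows, Alas2 and Slc4a1 have both KO points above both WT points, while for Ermap and Klf1 the KO 2 point lies at the level of the WT points.

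The makeup of the globin reads differed less between libraries than their amount. Hba-a1 gave 44.9%, 44.9%, 46.8% and 42.7% of the alpha reads in WT 1, WT 2, KO 1 and KO 2, and Hbb-b1 gave 55.9%, 60.8%, 57.8% and 60.5% of the beta reads. The alpha rows gave 54.1% (Wilson 95% interval 51.6 to 56.7) of globin reads in WT 1 and 57.6% (54.9 to 60.2) in WT 2. They gave 53.1% (52.0 to 54.3) in KO 1 and 61.85% (60.55 to 63.14) in KO 2. The intervals of KO 1 and KO 2 did not overlap, and both libraries numbered 2 lay above both numbered 1. Embryonic and minor globin genes, named after their values were seen, were at or near 0: Hba-x, Hbb-bh1, Hbb-bh2, Hbq1a and the muscle gene Mb had 0 reads in every library, Hbb-y had 2 reads in KO 2 and Hbq1b had 5 reads in KO 1.

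Alas2 encodes the erythroid form of 5-aminolevulinate synthase, which catalyses the first step of heme synthesis. It stood at 1.88 and 1.76 CPM in WT, against 8.39 and 4.41 CPM in KO (61, 69, 246 and 159 reads). The WT libraries were close together and both KO libraries lay above them. Its log2 fold change of 1.81 (SE 0.44) had an edgeR adjusted p of 1.00 and a DESeq2 adjusted p of 0.0884, so neither tool called it in the fit by genotype alone.

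The other heme synthesis genes tested showed no common direction. Of 14 tested, 7 were above 0 and 7 below, and 0 had an unadjusted edgeR p under 0.05. The median log2 fold change was 0.01 (-0.155 without KO 1, 0.184 without KO 2). Tspo2, named after its values were seen, failed the filter on low counts. It had 3 and 3 reads in WT, 23 in KO 1 and 4 in KO 2. The most highly expressed were Slc25a39, a mitochondrial carrier gene (101 and 105 CPM in WT, with 93.3 and 85.4 CPM for KO), and Alad, which encodes the enzyme after Alas2 in the pathway (64.1 and 54.9 CPM in WT, with 64.9 and 54.0 CPM for KO).

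Slc4a1 encodes band 3, the anion exchanger and membrane anchor of the red cell. It stood at 2.31 and 0.560 CPM in WT, against 13.6 and 4.69 CPM in KO (75, 22, 400 and 169 reads). Both KO libraries lay above both WT libraries, but the WT libraries differed by more than for the other members. Its log2 fold change of 2.68 (SE 0.91) was the highest of the 8 genes and among the least certain. It moved from 4.02 without WT 1 to 1.72 without KO 1, and neither tool called it in the fit by genotype alone (edgeR adjusted p = 1.00, DESeq2 adjusted p = 0.135). By library number the ratio was 5.91-fold (95% counting interval 4.61 to 7.67) for number 1 and 8.37-fold (5.35 to 13.7) for number 2.

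Ermap encodes a membrane protein of erythroblasts and red cells. It stood at 0.646 and 0.586 CPM in WT, at 2.11 CPM in KO 1 and at 0.610 CPM in KO 2 (21, 23, 62 and 22 reads), so that only KO 1 stood apart. The ratio was 3.27-fold (1.97 to 5.65) for number 1 and 1.04-fold (0.554 to 1.96) for number 2. The log2 fold change of 1.14 (SE 0.75; edgeR adjusted p = 1.00) became -0.01 without KO 1.

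Klf1, the erythroid factor that activates adult beta globin, also stood apart in KO 1 alone. It stood at 0.369 and 0.407 CPM in WT, at 2.56 CPM in KO 1 and at 0.333 CPM in KO 2 (12, 16, 75 and 12 reads). The ratio was 6.93-fold (3.74 to 14.0) for number 1 and 0.817-fold (0.353 to 1.84) for number 2. The log2 fold change of 1.88 (SE 1.06; edgeR adjusted p = 1.00) became -0.22 without KO 1. In KO 2 the globin rows were thus 4.39 times their WT 2 level while Klf1 did not exceed that of WT 2. At 12 to 75 reads these intervals are wide, and they cover counting error only.

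**Figure D2:**
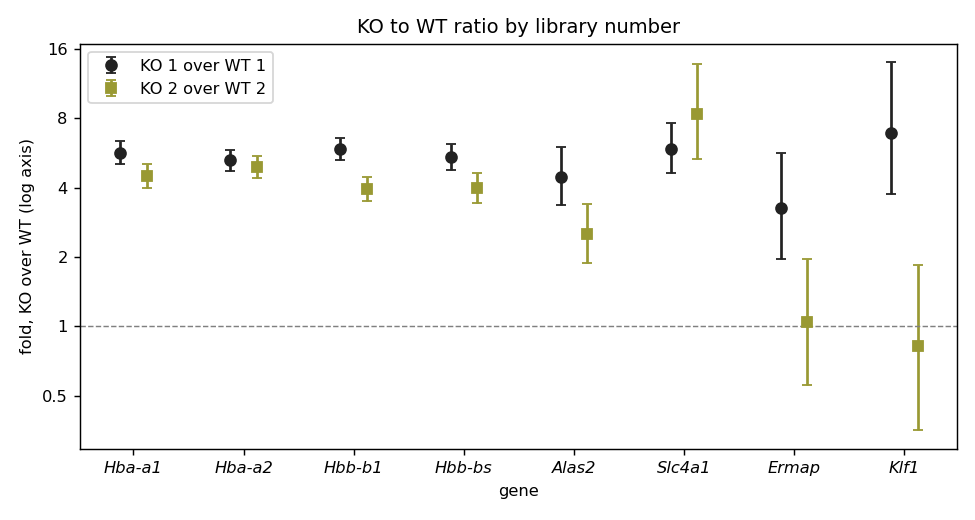
Ratio of the KO to the WT library (log axis) for each gene, separately for the libraries numbered 1 (circles) and 2 (squares), with 95% counting intervals from an exact binomial method. The 4 globin rows lie between 3.93 and 5.88 for both numbers, while the interval for number 2 includes 1 for Ermap and Klf1.

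All 8 genes had a log2 fold change above 0, against 48.2% of all 12723 tested genes, with a median of 2.31 against -0.01. Both KO libraries lay above both WT libraries for 6 of the 8, against 9.64% of all genes, and 6 had an unadjusted edgeR p under 0.05 and were higher, against 1.7% (2.84% in either direction). All 8 had a log2 fold change above 1, against 3.61% of all genes. With genotype as the only term, edgeR called 0 of the 8 when adjusted over all genes (0% of all genes were called higher), and limma voom also called 0. DESeq2 called 4 of the 8 higher, the globin rows, against 0.377% of all genes, and 0 lower, against 0.181%. That count was 0 without WT 2, 2 without KO 1 and 5 without WT 1 or KO 2. The genes were chosen with earlier results known, so these shares describe them and are not a test. Without KO 1, 6 of the 8 genes were above 0. These are bulk libraries, in which more cells of a type and more RNA per cell cannot be told apart.

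Taken per length, the globin rows stood far above the other members. In RPKM, the CPM per 1000 bases of gene length, Hba-a2 stood at 23.7 and 19.4 in WT 1 and WT 2, Hba-a1 at 19.4 and 15.9, Hbb-b1 at 18.3 and 14.2 and Hbb-bs at 14.2 and 8.93. Alas2 followed at 0.948 and 0.888, Slc4a1 at 0.507 and 0.123, Klf1 at 0.241 and 0.266 and Ermap at 0.142 and 0.129. Neighbours within the globin rows overlapped or nearly did, and Slc4a1 overlapped both Klf1 and Ermap. The WT ranges of Hbb-bs and Alas2 did not overlap, nor did those of Alas2 and Slc4a1, though Slc4a1 varied widely between the WT libraries. Those of Klf1 and Ermap did not overlap either, but rest on 12 and 16 reads of Klf1 and 21 and 23 of Ermap. In KO the globin rows reached 35.6 to 125 RPKM, which put Hba-a2 above 93.9% of tested genes by mean level, against 70.7% in WT. Klf1 stood above 18.2% in KO and 8.2% in WT by mean level. Its KO mean rests on KO 1, at 1.67 RPKM, while KO 2 stood at 0.217 RPKM, below both WT libraries.

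Set against the globin reads of the same library, the other members fell into different patterns. Klf1 gave 8.26 (95% interval 4.27 to 14.4) and 11.9 (6.78 to 19.3) reads per 1000 globin reads in WT 1 and WT 2. It gave 10.3 (8.11 to 12.9) in KO 1 and 2.21 (1.14 to 3.86) in KO 2. KO 2 was thus the library poorest in Klf1 for its globin content, and its interval overlapped none of the other 3. The KO 1 value lay between the WT values. Ermap gave 14.5 (8.95 to 22.1) and 17.1 (10.8 to 25.6) in WT, 8.52 (6.53 to 10.9) in KO 1 and 4.05 (2.54 to 6.13) in KO 2. Alas2 gave 42.0 (32.1 to 54.0) and 51.2 (39.8 to 64.7) in WT, 33.8 (29.7 to 38.3) in KO 1 and 29.2 (24.9 to 34.2) in KO 2. Of these KO values, that of Ermap in KO 2 had an interval below both WT intervals, while the intervals of Ermap in KO 1 and of Alas2 in both KO libraries overlapped that of WT 1. Slc4a1 gave 51.7 and 16.3 in WT and 55.0 and 31.1 in KO, with both libraries numbered 1 the higher.

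**Figure D3:**
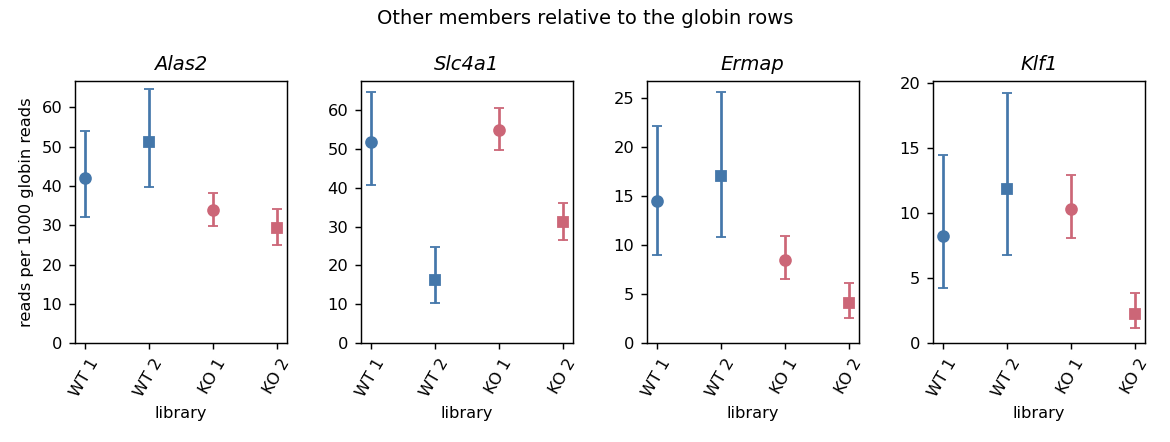
Reads of Alas2, Slc4a1, Ermap and Klf1 per 1000 reads of the 4 globin rows in each library, with exact Poisson 95% intervals for the gene's own count. Klf1 is lowest in KO 2 at 2.21, against 8.26 to 11.9 in the other libraries.

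Red cell membrane and skeleton genes other than Slc4a1 and Ermap were mixed. Of 18 tested, 11 were above 0, 2 had an unadjusted edgeR p under 0.05 (both higher) and 0 were called by edgeR or DESeq2, with a median log2 fold change of 0.48. That median was 0.01 without KO 1 and -0.05 when genes had to reach 1 CPM in 2 libraries. Stom was 1 of these 2 genes and encodes the membrane protein stomatin. Stom stood at 10.4 and 9.06 CPM in WT, against 27.4 and 14.0 CPM in KO (edgeR adjusted p = 1.00). The adducin genes Add1 and Add3, expressed in many cells and the highest of the list, had log2 fold changes of 0.04 and -0.13. Rhag and Rhd, genes of the Rh complex named after their values were seen, stood at 2.15 and 3.24 CPM in KO 1 and at 0.305 and 0.277 CPM in KO 2. In WT 1 and WT 2, Rhag stood at 0.462 and 0.0509 CPM and Rhd at 0.892 and 0.280 CPM. In KO 2, Rhag thus lay within the WT range and Rhd just below it. Other low genes of the list, also named after their values were seen, differed from this. Sptb stood at 0.215 and 0.280 CPM in WT, against 0.477 and 0.999 CPM in KO. Dmtn stood at 0.400 and 0.382 CPM in WT, against 0.818 and 0.638 CPM in KO. Both KO libraries lay above both WT libraries for 5 of the 18, against 9.64% of all genes, and below both for 1.

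Erythroid transcription factors showed no common direction. Of 15 tested, 7 were above 0 and the median log2 fold change was -0.06 (-0.17 without KO 1, 0.16 without WT 2). E2f2, a cell cycle factor used in terminal erythroid division, stood at 20.98 and 20.85 CPM in WT, against 44.2 and 35.7 CPM in KO (edgeR adjusted p = 1.00). Klf3, a repressor that is itself a Klf1 target, stood at 223 and 252 CPM in WT, against 143 and 161 CPM in KO (edgeR adjusted p = 1.00). The most highly expressed, Klf13 and Zfpm1, had log2 fold changes of -0.44 (SE 0.59) and 0.07 (SE 0.87). In WT, Klf13 stood at 204 and 399 CPM and Zfpm1 at 145 and 380 CPM, so the list median does not describe low genes alone. Gata1 and Tal1, named after their values were seen, were likewise highest in KO 1, with the KO 2 level inside the WT range. Gata1 had 16 and 7 reads in WT, 50 in KO 1 and 7 in KO 2. Tal1 had 15 and 10 reads in WT, 61 in KO 1 and 16 in KO 2. Some other low genes of the list, also named after their values were seen, differed from this. Gfi1b, which failed the filter on low counts, had 1 and 0 reads in WT, 18 in KO 1 and 6 in KO 2. Gata2 and Sox6 were highest in a WT library.

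Iron uptake and erythropoietin signalling genes were also mixed, with 6 of 13 tested above 0 and a median log2 fold change of -0.07 (-0.20 without KO 1, 0.49 without KO 2). Steap3, a ferrireductase gene of the transferrin cycle, was the one with an unadjusted edgeR p under 0.05 (adjusted p = 1.00), at 54.4 and 48.5 CPM in WT, against 83.1 and 108 CPM in KO. Its KO 2 value exceeded its KO 1 value, the reverse of all 8 members. The ferritin heavy chain gene Fth1 had a log2 fold change of -0.19 and Stat5b one of -0.39, and neither was called. Tfrc, the transferrin receptor gene, named after its values were seen, stood at 4.46 and 3.69 CPM in WT, against 13.4 and 5.58 CPM in KO.

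Among other late erythroid genes, 12 of 17 tested were above 0, with a median log2 fold change of 0.12 (0.02 without KO 1, 0.36 without KO 2). Trim58, which encodes a ubiquitin ligase of late erythroblasts, had 4 and 0 reads in WT and 51 and 99 reads in KO. It was the only gene of this list that DESeq2 called (adjusted p = 9.33e-04), while edgeR did not (adjusted p = 1.00). Trim10, another Trim gene of erythroid cells, had 7 and 3 reads in WT and 48 and 16 reads in KO (edgeR adjusted p = 1.00). The most highly expressed, the carbonic anhydrase gene Car2 and Rnf10, had log2 fold changes of -0.11 and -0.07.

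Markers of other cell types were counted in the same libraries. Of 15 neutrophil and granulocyte precursor markers tested, 15 were above 0, with a median log2 fold change of 3.73 (7.06 without WT 1, 2.08 without KO 1), and 10 had both KO libraries above both WT libraries. All 16 listed summed to 44.7 and 2.75 CPM in WT, against 479 and 105 CPM in KO. Elane, Prtn3 and Ltf were at 0 reads in WT 2, as were Ctsg and Ngp, named after their values were seen, and none of the 16 was at 0 in a KO library. DESeq2 called 4 of them, Mpo, Elane, Prtn3 and Lcn2. The 13 macrophage and monocyte markers summed to 167 and 48.4 CPM in WT, against 396 and 56.3 CPM in KO, with 12 of 13 above 0 and 1 with both KO libraries above both WT libraries. KO 1 was above WT 1 for 12 of the 13 and KO 2 above WT 2 for 4, and the median log2 fold change of 0.69 became -0.89 without KO 1. Without Lyz2 the macrophage sums were 74.0 and 45.1 CPM in WT, against 138 and 37.8 CPM in KO. B cell markers summed to 248 and 175 CPM in WT, against 451 and 225 CPM in KO, with 6 of 9 tested above 0. T cell markers summed to 230 and 176 CPM in WT, against 309 and 163 CPM in KO, with 4 of 10 tested above 0, and included the constant segment gene Trac, which DESeq2 called (adjusted p = 7.04e-06). Platelet and megakaryocyte markers summed to 84.7 and 71.6 CPM in WT, against 103 and 89.8 CPM in KO, of which Gp1bb made up 53.6 to 91.1 CPM. The platelet gene Pf4, named after its values were seen, had 1 to 6 reads in each library. KO 1 held the highest sum of all 5 lists, as of the globin rows, but for T cell markers this rested on Trac, without which they summed to 224 in WT 1 and 215 CPM in KO 1. The B cell sums without Igkc were 198 and 152 CPM in WT, against 236 and 186 CPM in KO. The part of these cells in the globin values was not tested.

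**Figure D4:**
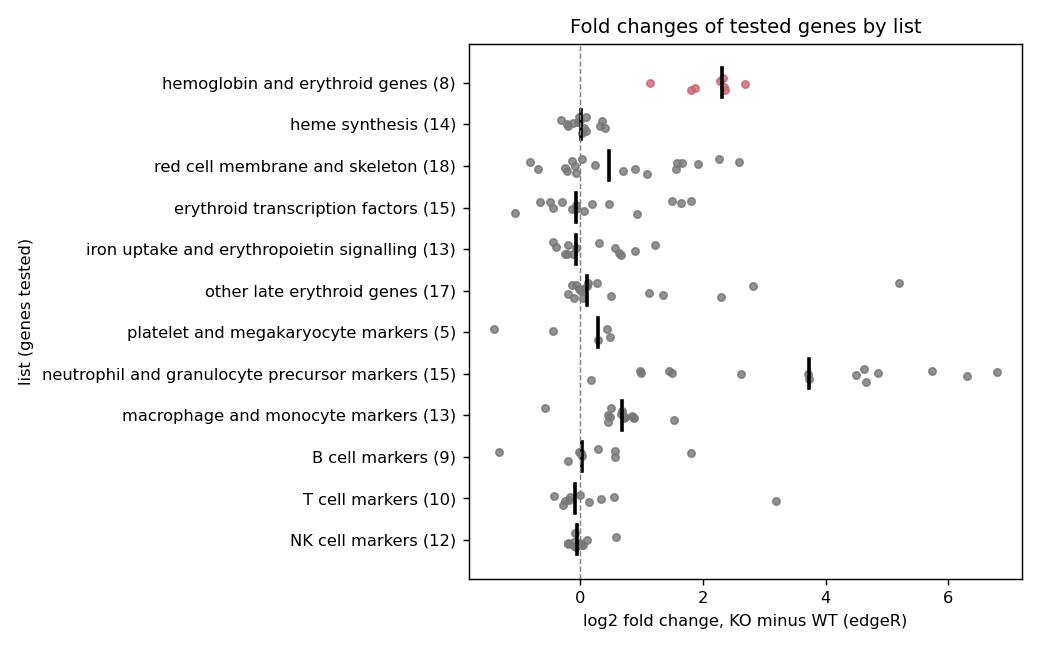
edgeR log2 fold change of KO minus WT for each tested gene, grouped by list with the number tested in brackets, with black bars at the medians. The 8 hemoglobin and erythroid genes lie at 1.14 to 2.68, while heme synthesis genes centre at 0.01 and neutrophil markers at 3.73.

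The genes whose profile over the 4 libraries lay nearest to that of the summed globin rows were in none of the erythroid lists. Likeness was the root mean square distance between centred log2(CPM + 0.1) values, taken over 10421 genes with a mean of at least 1 CPM. The members and genes with provisional names, such as those of the Gm or Rik type, were left out of these. The floor of 1 CPM also left out low erythroid genes such as Rhag and Trim10. The nearest was Gzmk, a granzyme gene, at a distance of 0.184 (15.1 and 9.17 CPM in WT, with 90.2 and 42.1 CPM for KO). It was followed by Mtfr2 (0.207), Lrg1 (0.237), Chst13 (0.253), Esco2 (0.255), Espl1 (0.257), Klra5 (0.278) and Mxd3 (0.296). Esco2 and Espl1 act in sister chromatid cohesion and separation, and Klra5 is an NK cell receptor gene. Among the members on the same scale, Hba-a1 lay at 0.046, Hba-a2 at 0.121, Hbb-b1 at 0.085 and Hbb-bs at 0.177, but these are part of the sum. Alas2 lay at 0.329, Slc4a1 at 0.628, Ermap at 0.819 and Klf1 at 0.906. Gzmk was the nearest of 10421 genes, so its smaller distance says nothing about these members. With a pseudocount of 1 CPM, 2 of these 8 genes were again among the nearest, so the order describes these libraries under 1 setting.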

How the data were processed

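RNA was measured in 4 libraries, 2 WT and 2 KO. The deposited counts are whole numbers of reads per Entrez gene number beside a gene length, per the file headers. Reads on mm10 went through featureCounts in the authors' hands (submitters' processing notes). The sources used here do not give the aligner, annotation, strand setting or handling of reads shared by genes. The 4 files of single samples held the same counts as the table of the whole series, and 0 columns were left without a sample. Of 26611 gene numbers, 25275 (95.0%) matched a symbol in a RefSeq table of GRCm38.p6, which also gave positions and promoter sequences. Coding sequences came from GENCODE transcripts of the same build.

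Genes were kept with filterByExpr (minimum count 10) and tested by quasi-likelihood in edgeR 4.0.16 (R 4.3.3), with TMM factors, a robust fit and genotype as the only term. A call is a Benjamini-Hochberg adjusted p under 0.05 over all 12723 tested genes. Levels are CPM scaled by TMM, or the same per 1000 bases of the deposited length (RPKM). Each standard error (SE) is the fold change over the root of F. DESeq2 1.42.0 and limma 3.58.1 (voom) were alternatives. Other alternatives were 2 other scalings, 2 other filters, a fit without the robust option, the replicate number as a block and each library left out. DESeq2 with a library left out or with the block was added after seeing the data, as were sums of 3 marker lists without 1 gene each. Tests were first run on simulated counts, and the outcome is not reported here.

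The genes described and the lists were chosen with earlier results of these data known. Genes of other lists were named if the edgeR unadjusted p was under 0.05 (up to 6 per list, those with the smallest p) or if they were among the 2 most highly expressed. Genes outside that rule are said to be so. Some genes that the rule names are not reported here. Motifs were chosen after the promoters were seen. With 2 libraries per group an exact permutation test cannot give a p under 0.333. All tests are two-sided, and intervals cover counting error only.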

Additional observations from a re-analysis of the deposited data

How the results depend on the processing

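The number of genes called by edgeR was 0 in the reported fit, with DESeq2 size factors, library size only, at least 1 CPM in 2 libraries, the fit without the robust option and voom. It was 35 with no filter, and 0 to 53 with 1 library left out (33 without KO 1, 53 without KO 2). DESeq2 called 71, and 50, 34, 52 and 74 without WT 1, WT 2, KO 1 and KO 2. Of the 8 members, 3 were called with no filter, 4 by DESeq2, 0 to 4 by edgeR and 0 to 5 by DESeq2 with 1 library left out. Of the genes of the other lists, 6 were called by DESeq2, 0 to 5 by edgeR and 3 to 14 by DESeq2 with 1 library left out. The replicate block was fitted although the numbers are not known to pair the libraries: the difference between library 1 and 2 correlated at 0.742 between genotypes over 12723 genes. With the block edgeR called 221 genes, 6 members (the globin rows, Alas2 at an adjusted p of 0.0268 and Slc4a1 at 0.00113) and 13 genes of other lists, and DESeq2 with the block 240, 6 and 17. Tcf7 was called at -2.20 with no filter and by DESeq2, at -2.31 by DESeq2 with the block, at -2.88 without KO 2 and at -1.74 and -2.89 by DESeq2 without KO 1 and without KO 2 (range over edgeR fits with 1 library left out -2.88 to -1.75, over those of DESeq2 -2.89 to -1.74). With 1 library left out, Ermap ranged from -0.0112 (without KO 1) to 1.81 (without KO 2) and Klf1 from -0.22 to 2.74 (-0.21 in DESeq2 without KO 1). The log2 ratio of summed globins was 2.31 to 2.36 under the other scalings and chains and 1.93 to 2.65 with 1 library left out. Of the 8 nearest genes, 2 remained with a pseudocount of 1 CPM and 2 with a minimum of 5 CPM, which the other 6 do not reach. The cause of these changes was not tested. Depth limits Klf1 and Ermap most, at 12 to 75 reads.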

Other observations

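Reads of 2 basophil genes came almost only from KO 1, the library with the highest globin level. Prss34, a basophil protease gene, had 146 reads there and 0 in each of the other 3 libraries, and Mcpt8, another basophil protease gene, had 91 reads in KO 1, 4 in WT 1 and 0 in WT 2 and KO 2. Both were named after their values were seen, were not tested because they failed the filter on low counts, and stand as values of 1 library. They come from a list of 8 mast cell and basophil genes, of which others were not confined to KO 1. Cpa3 had 75 and 55 reads in WT and 49 and 55 in KO, and Hdc had 30 and 7 in WT and 48 and 11 in KO. Fcer1a, also named after its values were seen, had 11 reads in KO 1 and 0 in WT 1, WT 2 and KO 2.

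Of the erythroid genes described, Hba-a1, Hba-a2, Slc4a1 and Trim58 lie on chromosome 11, as does Tcf7 (52246527 to 52283383). Trim58 lies 6.36 Mb from Tcf7, the alpha globin genes 19.95 and 19.96 Mb and Slc4a1 50.07 Mb. Trim58 stood at 1.74 CPM in KO 1 and 2.75 CPM in KO 2, while all 8 members were lower in KO 2 than in KO 1. No relation between position and level was tested.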
